A study of Mus musculus with 13 samples.

Results

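The 44 genes described here encode antioxidant and glutathione enzymes of the mouse kidney, together with the Nfe2l2-Keap1 switch that is known to set the level of many of them. They were chosen by symbol from a gene table of 35013 symbols. The rule itself used no measured value, but the list was drawn up with earlier results of these data known. All 44 symbols were in the table, and all 44 passed the low-count filter that left 16468 genes for testing. Their lowest count in any library was 81, for Txnrd2.

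The data were nascent RNA, captured from the kidneys of female mice and sequenced in 13 libraries. Spns1 encodes a membrane protein of late endosomes and lysosomes, and the study asked whether its deletion in the proximal tubule moves the same genes as iron loading by injection. All mice carried Megalin3'Cre-Ert, a tamoxifen-inducible Cre placed after the megalin coding sequence, and 1 allele of Uprt behind a floxed stop. In cells where Cre had acted, UPRT let injected 4-thiouracil enter new RNA, which was biotinylated, caught on streptavidin and enriched for poly-A. The 4 libraries labelled Spns1 KO came from Spns1 flox/flox mice. The 5 WT libraries came from Spns1 flox/+ mice, which the labels call Spns1 WT and which can lose 1 Spns1 allele to the same Cre. The 4 FeO libraries came from Spns1 flox/+ mice that received 12 mg of iron on each of 3 days, injected as iron sucrose, and were killed 1 week after that. All groups received tamoxifen. The ages of the mice and the number of mice behind each library are not given in the labels, so the p-values measure the spread between these libraries, which may in part be technical.

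Superoxide dismutases turn superoxide into hydrogen peroxide, which catalase, the glutathione peroxidases and the peroxiredoxins then remove. The last 2 families are recharged by glutathione and thioredoxin, and both of these draw on NADPH. Ferrous iron reacts with hydrogen peroxide to form hydroxyl radicals, and the proximal tubule, rich in mitochondria and peroxisomes, is a known site of such injury in iron overload. The transcription factor encoded by Nfe2l2 is held back and degraded through Keap1 and, once freed, binds antioxidant response elements near genes of glutathione synthesis, thioredoxin and drug conjugation.

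Spns1 itself (chr7:126370060-126377450, minus strand) had WT levels of 39.2 to 62.9 CPM (counts scaled to a common library total), Spns1 KO levels of 36.6 to 59.0 and FeO levels of 39.0 to 58.7, and the test gave a log2 fold change of -0.31 ± 0.18 (SE; adjusted p = 0.225) for Spns1 KO against WT. With each library corrected for the dependence of counts on transcript length and GC content, Spns1 was called lower in Spns1 KO (log2 fold change -0.54 ± 0.15, SE; adjusted p = 0.0233) and was not called in FeO (log2 fold change -0.32 ± 0.15, SE; adjusted p = 0.0917). Spns1 KO 4 was the library at 59.0 CPM, inside the WT range. The deposited counts cover the whole gene, so the deleted exons were not seen apart, and Spns1 KO below means the libraries labelled so. Library totals were 31809135 to 71296474 counts in Spns1 KO, 23068023 to 37362311 in WT and 25986133 to 29981814 in FeO. Of 10 proximal tubule markers, 7 rose in Spns1 KO and 3 rose and 1 fell in FeO, and their summed level was 4197 to 5742 CPM in WT, 12277 to 12704 in Spns1 KO and 2905 to 10555 in FeO. Markers of other cells were present in every group and moved too. The 7 leukocyte genes summed to 42.5 to 62.5 CPM for WT, 133 to 188 for Spns1 KO and 65.6 to 229 for FeO (1 rose in Spns1 KO and 5 in FeO), and the 5 red cell genes to 9.40 to 36.5, 51.8 to 175 and 26.3 to 238 (5 and 4 rose). The 5 fibroblast genes summed to 60.9 to 97.9, 118 to 163 and 52.7 to 126 CPM (3 rose in Spns1 KO, 0 in FeO), and the 5 endothelial genes to 153 to 178, 211 to 251 and 157 to 283 CPM (2 rose in each model and 1 fell in FeO). The 4 podocyte genes summed to 155 to 276, 225 to 284 and 276 to 630.3 CPM (2 and 3 rose), and the 9 genes of the loop, distal tubule and collecting duct to 1990.4 to 4481, 3459 to 4526 and 2210.4 to 5622 CPM (3 and 5 rose). No marker of these lists was at 0 in every library. Their part in the results below was not tested, and fewer cells of a type cannot be told apart from less RNA per cell.

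The core of the antioxidant response element, TGACNNNGC read on either strand, was searched in promoters of 250 bases before to 50 after each RefSeq start (build GRCm38.p6). Of the 44 genes, 37 had a promoter, and 10 of the 37 (27.0%) held the core in at least 1 promoter, against 3781 of 27025 genes in all (14.0%). Below, 9 of these cores are shown with up to 10 bases on each side, 5′ to 3′ along the gene's strand, with the core in capitals, because the genes behind them differed in how they moved: Sod1, Prdx1, Gstm5 and Mgst1 rose in each comparison with WT, Gclm rose in Spns1 KO, Srxn1 and G6pdx rose in FeO, and Nfe2l2 and Txnrd1 were called in neither.
Sod1 (chr16:90220696-90220724, plus strand): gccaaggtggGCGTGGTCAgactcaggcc
Prdx1 (chr4:116685456-116685484, plus strand): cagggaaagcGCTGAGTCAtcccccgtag
Gstm5 (chr3:107895802-107895830, plus strand): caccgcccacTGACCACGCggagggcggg
Mgst1 (chr6:138140461-138140489, plus strand): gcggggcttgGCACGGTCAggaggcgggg
Gclm (chr3:122245413-122245441, plus strand): gctcccgggcGCACCGTCAactctcacga
Srxn1 (chr2:152105542-152105570, plus strand): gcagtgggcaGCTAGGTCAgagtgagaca
G6pdx (chrX:74428919-74428947, minus strand): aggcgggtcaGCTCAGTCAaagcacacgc
Nfe2l2 (chr2:75704885-75704913, minus strand): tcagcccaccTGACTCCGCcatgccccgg
Txnrd1 (chr10:82859104-82859132, plus strand): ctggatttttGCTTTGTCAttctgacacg
In Sod1, Prdx1, Mgst1, Gclm, Srxn1, G6pdx and Txnrd1 the core lay on the opposite strand and reads GCNNNGTCA here. The remaining gene with a core was Ggt1, at 3 of its starts. The Nqo1 promoter held no match, which says only that these letters are not in that window. A match is a description of letters and not evidence of binding.

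Most of the 44 genes were higher in both models than in WT. A gene was called when the adjusted p of the edgeR quasi-likelihood test, corrected over all 16468 genes, was under 0.05 and the log2 fold change was beyond 0.5. In Spns1 KO, 28 of the 44 rose and 0 fell (63.6% up), where 14.0% of all genes tested were called up and 7.55% down. In FeO, 34 of the 44 rose and 0 fell (77.3% up), against 22.4% of all genes up and 19.7% down. The log2 fold changes of the 44 had a median of 0.92 in Spns1 KO, with a range of -0.40 to 1.81, and of 0.95 in FeO, with a range of -0.12 to 1.91. The medians of all genes tested were -0.045 and -0.011. The log2 fold change was above 0 for 40 of the 44 in Spns1 KO (46.8% of all genes) and for 41 in FeO (49.5% of all genes). Every Spns1 KO library was above every WT library for 22 of the 44 and below for 0, and this held for 13.1% and 9.38% of all genes. For FeO the counts were 28 and 0 of the 44, and 16.9% and 16.4% of all genes. Both comparisons use the same 5 WT libraries and are therefore not independent of each other. The 44 were also chosen with earlier results of these data known, so these shares describe the list and do not test it.

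**Figure D1:**
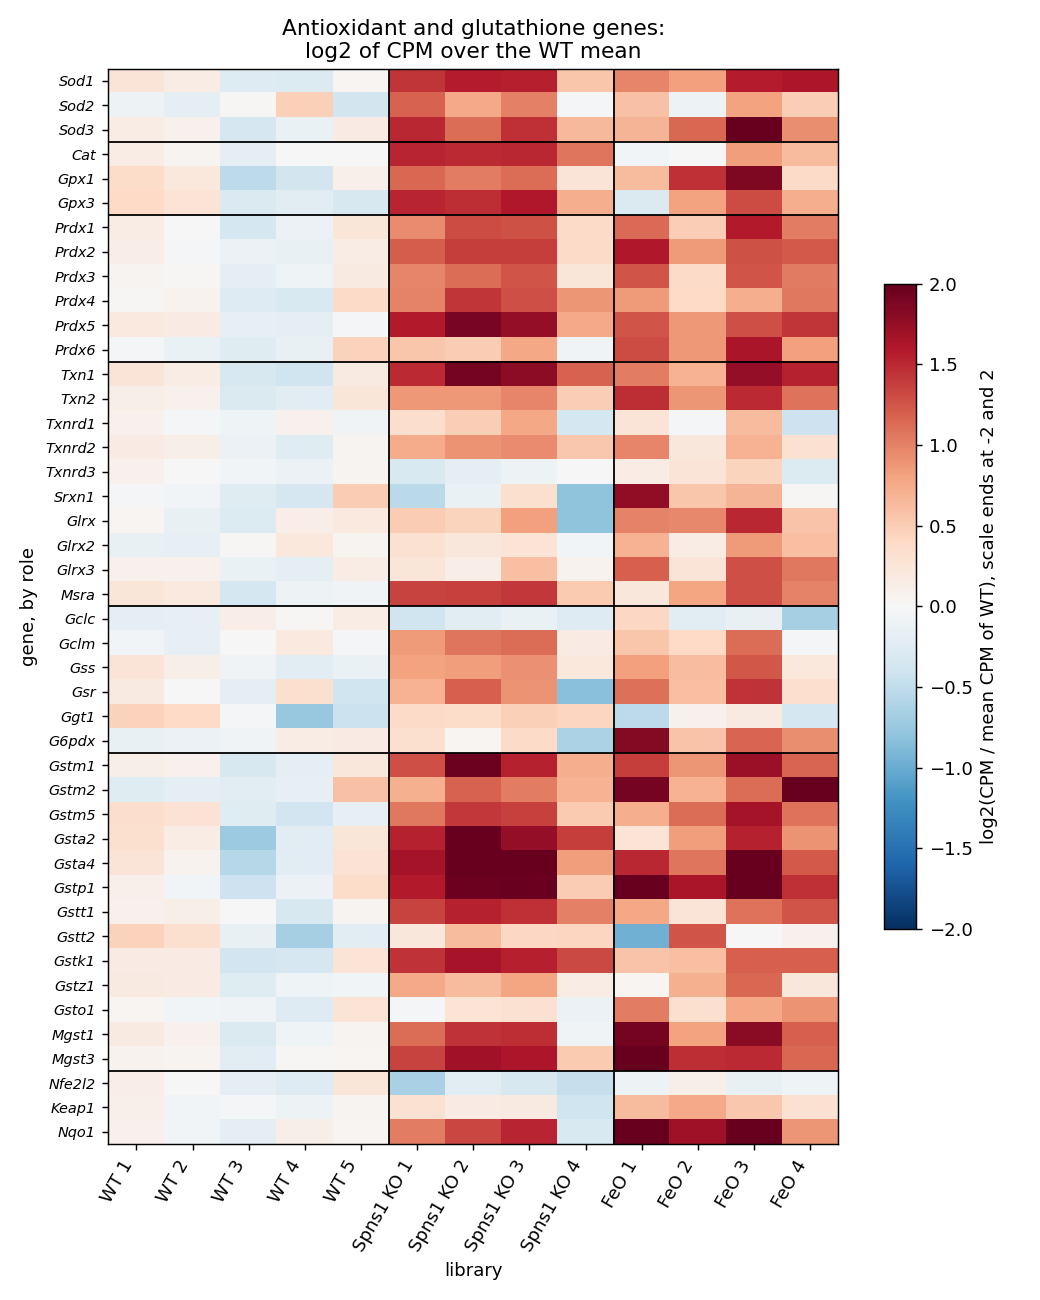
Each cell is the log2 ratio of a gene's CPM in 1 library (columns) to the mean CPM of the 5 WT libraries, for the 44 genes (rows, in blocks by role), with red above and blue below the WT mean. The Spns1 KO and FeO columns are mostly red, Spns1 KO 4 is paler than the other Spns1 KO libraries, and Txnrd3, Gclc and Nfe2l2 show no block of red in either model.

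The shift was seen in every library of both models but was unequal. Relative to the WT mean, the median log2 ratio over the 44 genes was 0.96, 1.11, 1.12 and 0.39 in Spns1 KO 1 to 4 and 0.92, 0.70, 1.27 and 0.90 in FeO 1 to 4. The WT libraries themselves lay at 0.12, 0.061, -0.20, -0.16 and 0.082. Spns1 KO 4 was the lowest of the 8 model libraries and still above the highest WT library. Without Spns1 KO 4 the count called in Spns1 KO was 33 and the median 1.06, with Prdx6, Txnrd1, Glrx, Gsr and Gstz1 gained and none lost. Calls rose over all genes tested too, to 18.2% up and 16.2% down, from 14.0% and 7.55% with all libraries.

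**Figure D2:**
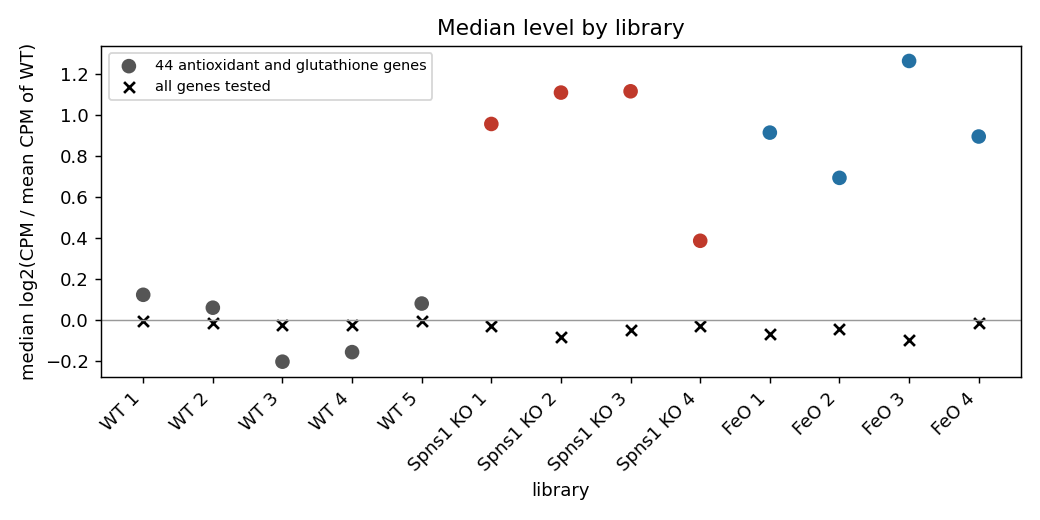
Filled points are the median, over the 44 genes, of the log2 ratio of CPM to the WT mean in each library, and crosses are the same median over all genes tested. The 44 genes lie at 0.39 to 1.12 in Spns1 KO and 0.70 to 1.27 in FeO, while all genes tested lie between -0.095 and -0.003 in every library.

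The 44 genes are short: their median transcript length was 1670.5 bases, against 2931.0 for the genes tested that had a length. With each library corrected for a smooth dependence of its counts on length and GC content, 24 of the 44 rose in Spns1 KO and 30 in FeO, and 0 fell in either, where 10.9% and 20.9% of all genes were called up. Values that stayed called but shrank by over 1.5 times on the log2 scale under this correction were, in Spns1 KO, those of Sod1, Prdx4 (0.74), Gstm5 (0.69), Gstp1 (1.05) and Gstt1 (0.89) and, in FeO, those of Sod1, Gpx1 (0.78), Prdx5 (0.80), Glrx (0.70) and Gstm5 (0.71). Some transcripts also share sequence with another gene, so that reads could have been split. For Prdx5 that gene is Trmt112, and for Prdx2 in part Junb and Rnaseh2a, which overlap them on the other strand. The share of 31-base words found in another gene was 75.6% for Gsta2, 67.5% for Gstp1, 50.6% for Glrx3, 35.4% for Sod1, 34.3% for Gstm1, 31.7% for Prdx2 and 30.8% for Prdx5, and the counts of these genes are uncertain to that extent.

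**Figure D3:**
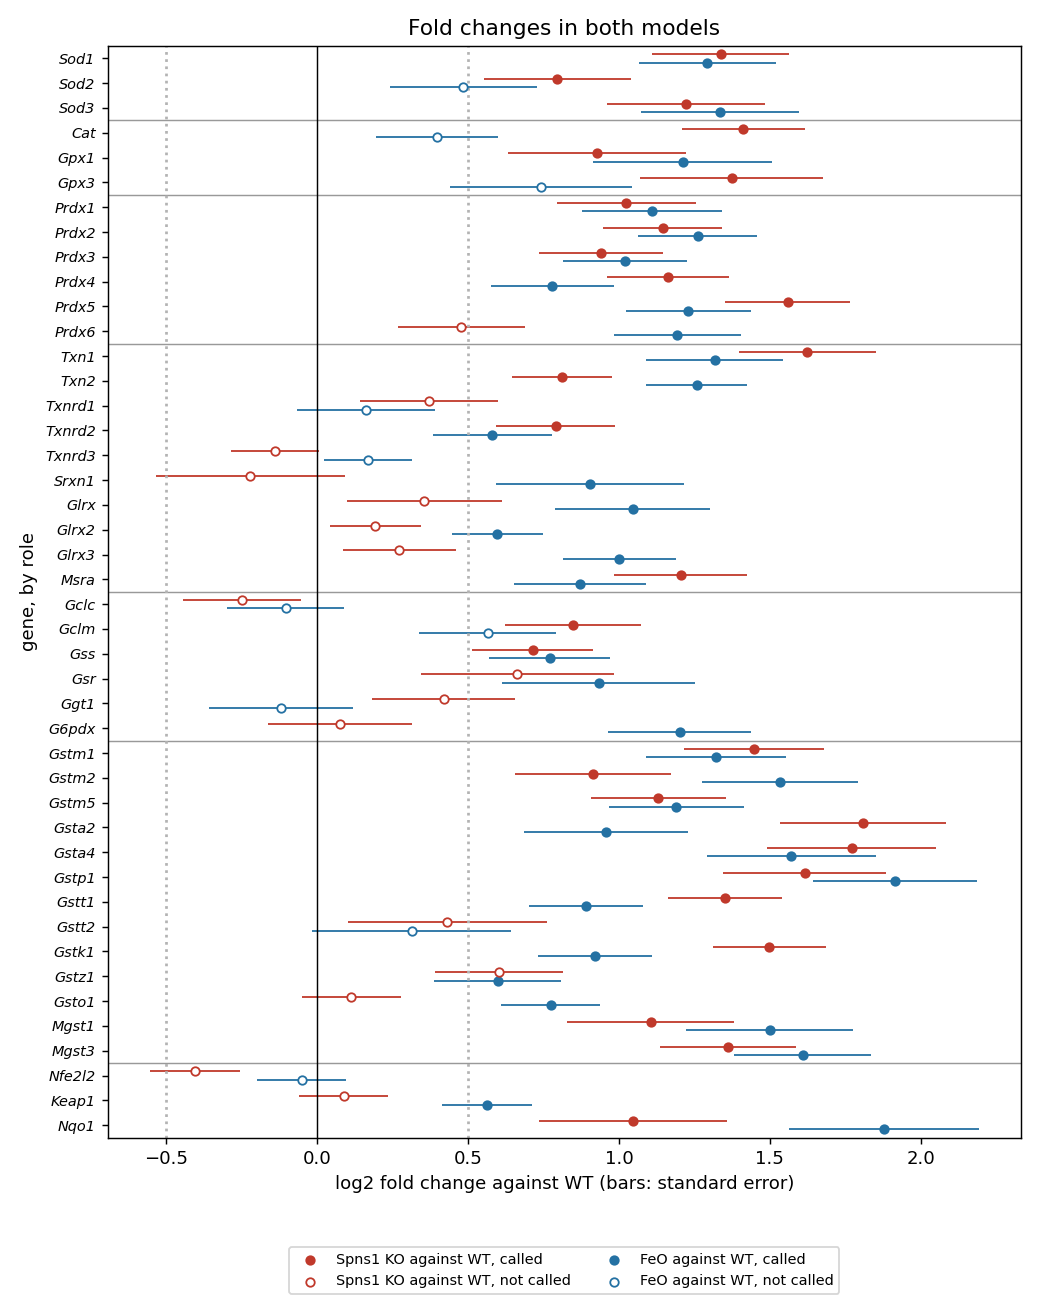
Points are log2 fold changes against WT, with bars for the standard error, for Spns1 KO (red) and FeO (blue), in blocks by role. Filled points passed the test (adjusted p under 0.05 and beyond the dotted lines at 0.5), which 28 genes did in Spns1 KO and 34 in FeO, and open points did not.

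The superoxide dismutases were higher in both models. Of the 3, 3 rose in Spns1 KO and 2 in FeO, against 14.0% and 22.4% of all genes tested. Sod1, the cytosolic copper-zinc enzyme (chr16:90220754-90226329, plus strand), rose to about the same level in each. Sod1 was at 74.6, 69.7, 52.5, 51.8 and 64.2 CPM in WT 1 to 5, at 169, 186, 185 and 92.2 CPM in Spns1 KO 1 to 4 and at 123, 111, 187 and 192 CPM in FeO 1 to 4. The lowest model library, Spns1 KO 4, was above the highest WT library, and the log2 fold changes were 1.34 ± 0.23 (SE; adjusted p = 0.00111) in Spns1 KO and 1.29 ± 0.23 (SE; adjusted p = 0.000717) in FeO. After correction for length and GC they were 0.78 and 0.76, both still called. Sod2, the mitochondrial manganese enzyme (chr17:13006846-13040063, plus strand), was less clear. Sod2 was at 109, 104, 119, 164 and 91.5 CPM in WT 1 to 5, at 268, 198, 236 and 115 CPM in Spns1 KO 1 to 4 and at 177, 110.1, 206 and 166 CPM in FeO 1 to 4. Spns1 KO 4 and FeO 2 lay inside the WT range, and WT 4 was above Spns1 KO 4. The log2 fold change of Sod2 was 0.80 ± 0.24 (SE; adjusted p = 0.0288) in Spns1 KO, where it was called, and 0.48 ± 0.24 (SE; adjusted p = 0.115) in FeO, where it was not. The Spns1 KO call was lost without Spns1 KO 1, Spns1 KO 2, Spns1 KO 3, WT 1, WT 2, WT 3 and WT 5, each left out in turn (log2 fold change 0.64 to 0.82, adjusted p = 0.0541 to 0.111), and the FeO call was gained without WT 4 and FeO 2, each left out in turn (log2 fold change 0.65 to 0.65, adjusted p = 0.0371 to 0.0399) and after correction for length and GC (0.99). Sod3, the secreted enzyme, rose by 1.22 ± 0.26 in Spns1 KO and 1.33 ± 0.26 in FeO on the log2 scale, with no overlap with WT.

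Of catalase and the 2 glutathione peroxidases, 3 rose in Spns1 KO and 1 in FeO, against 14.0% and 22.4% of all genes. Catalase was the 1 gene of the 44 that the main test called higher in Spns1 KO than in FeO. Cat (chr2:103453849-103485160, minus strand) encodes the peroxisomal enzyme that splits hydrogen peroxide. Cat was at 482, 450.5, 379, 429.7 and 429.8 CPM in WT 1 to 5, at 1250.0, 1224, 1237 and 909.8 CPM in Spns1 KO 1 to 4 and at 416, 431, 771 and 671 CPM in FeO 1 to 4. All 4 Spns1 KO libraries were above every WT and every FeO library, while FeO 1 and FeO 2 lay inside the WT range and FeO 3 and FeO 4 above it. The log2 fold change was 1.41 ± 0.20 (SE; adjusted p = 0.000505) in Spns1 KO and 0.40 ± 0.20 (SE; adjusted p = 0.118) in FeO, and the direct comparison of Spns1 KO with FeO gave 1.01 ± 0.22 (SE; adjusted p = 0.00894). The direct comparison kept its call in each of the 13 fits that left out 1 library, and the FeO comparison gained one without FeO 1 and FeO 2, each left out in turn (log2 fold change 0.53 to 0.54, adjusted p = 0.0456 to 0.047). Proximal tubule markers moved the same way between the models: 6 of the 10 were called higher in Spns1 KO than in FeO, and whether they account for the Cat difference was not tested.

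Gpx3 (chr11:54902453-54910377, plus strand), a secreted glutathione peroxidase made mainly by the proximal tubule, had the highest level per transcript length of the 44, at 2166 CPM per kb in WT, against 5612 CPM per kb for Spns1 KO and 3619 CPM per kb for FeO. Gpx3 was at 4547, 4184, 2827, 2939.9 and 2762 CPM in WT 1 to 5, at 9947, 9642, 10457 and 5737 CPM in Spns1 KO 1 to 4 and at 2812, 6016, 8511 and 5737 CPM in FeO 1 to 4. Every Spns1 KO library was above every WT library, whereas FeO 1 was close to the lowest WT libraries. The log2 fold changes were 1.37 ± 0.30 (SE; adjusted p = 0.00543) in Spns1 KO and 0.74 ± 0.30 (SE; adjusted p = 0.0555) in FeO, and the direct difference of 0.63 ± 0.32 (SE; adjusted p = 0.181) did not pass. The FeO comparison of Gpx3 gained a call without Spns1 KO 4, WT 1 and FeO 1, each left out in turn (log2 fold change 0.74 to 0.99, adjusted p = 0.0116 to 0.0467) and by DESeq2. Gpx1 (chr9:108338903-108340343, plus strand), the cytosolic glutathione peroxidase, rose in both. Gpx1 was at 229, 205, 123, 138 and 190.1 CPM in WT 1 to 5, at 395, 359, 383 and 211 CPM in Spns1 KO 1 to 4 and at 274, 489.7, 646 and 231 CPM in FeO 1 to 4. All FeO libraries were above WT, by a narrow margin for FeO 4, and Spns1 KO 4 was inside the WT range. Its log2 fold changes were 0.93 ± 0.29 (SE; adjusted p = 0.0336) and 1.21 ± 0.30 (SE; adjusted p = 0.00463) in Spns1 KO and FeO. The Spns1 KO call of Gpx1 was lost without Spns1 KO 1, Spns1 KO 2, Spns1 KO 3, WT 3 and WT 4, each left out in turn (log2 fold change 0.84 to 0.90, adjusted p = 0.0683 to 0.0965) and after correction for length and GC (0.45).

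The peroxiredoxins, thiol peroxidases recharged by thioredoxin or glutathione, rose in both models. Of the 6 genes, 5 rose in Spns1 KO and 6 in FeO, against 14.0% and 22.4% of all genes tested. Prdx1 (chr4:116685544-116700822, plus strand) is the abundant cytosolic member. Prdx1 was at 242, 217, 171, 202 and 258 CPM in WT 1 to 5, at 420.2, 539, 529 and 285 CPM in Spns1 KO 1 to 4 and at 479.7, 308, 651 and 443 CPM in FeO 1 to 4. Every library of both models was above WT, and the log2 fold changes were 1.02 ± 0.23 (SE; adjusted p = 0.00615) in Spns1 KO and 1.11 ± 0.23 (SE; adjusted p = 0.00176) in FeO. Prdx5 (chr19:6906697-6910106, minus strand), found in mitochondria and peroxisomes, had the largest Spns1 KO change of the family. Prdx5 was at 112, 109, 87.0, 85.2 and 95.0 CPM in WT 1 to 5, at 292, 363, 331 and 164 CPM in Spns1 KO 1 to 4 and at 234, 177, 239 and 264 CPM in FeO 1 to 4. The groups did not overlap with WT, with log2 fold changes of 1.56 ± 0.21 (SE; adjusted p = 0.000401) and 1.23 ± 0.21 (SE; adjusted p = 0.00064). An exon of Prdx5 overlaps Trmt112 on the other strand, and its count is uncertain for that reason.

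Prdx2 (cytosolic), Prdx3 (mitochondrial) and Prdx4 (endoplasmic reticulum) rose by 1.14, 0.94 and 1.16 in Spns1 KO and by 1.26, 1.02 and 0.78 in FeO on the log2 scale, with every model library above every WT library. After correction for length and GC the FeO change of Prdx4 was 0.32 and no longer called. Prdx6 (chr1:161240112-161251219, minus strand), the 1-cysteine member that uses glutathione, rose in FeO. Prdx6 was at 62.4, 58.7, 54.1, 57.8 and 88.2 CPM in WT 1 to 5, at 94.8, 91.5, 110.3 and 61.4 CPM in Spns1 KO 1 to 4 and at 159, 117, 198 and 114 CPM in FeO 1 to 4. The 4 FeO libraries were above all the others, and WT 5 stood above the other WT libraries. Log2 fold changes of Prdx6 were 0.48 ± 0.21 (SE; adjusted p = 0.111) in Spns1 KO and 1.19 ± 0.21 (SE; adjusted p = 0.000742) in FeO. The difference between the models was -0.72 ± 0.22 (SE; adjusted p = 0.043), and this call was lost without Spns1 KO 1, Spns1 KO 2, Spns1 KO 4, WT 1, WT 2, WT 3, FeO 1 and FeO 3, each left out in turn (log2 fold change -0.74 to -0.54, adjusted p = 0.0533 to 0.125). The Spns1 KO comparison of Prdx6 gained a call without Spns1 KO 4 and WT 5, each left out in turn (log2 fold change 0.62 to 0.64, adjusted p = 0.0274 to 0.0427).

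Of the 10 genes of the thioredoxin and glutaredoxin systems and of protein repair, 4 rose in Spns1 KO and 8 in FeO. Of all genes tested, 14.0% and 22.4% rose. Txn1 (chr4:57943373-57956411, minus strand), the cytosolic thioredoxin, was among the largest changes in Spns1 KO. Txn1 was at 61.0, 56.6, 40.8, 38.9 and 57.7 CPM in WT 1 to 5, at 143, 193, 177 and 116 CPM in Spns1 KO 1 to 4 and at 104, 82.8, 173 and 149 CPM in FeO 1 to 4. Every model library was above every WT library, and the log2 fold changes were 1.62 ± 0.23 (SE; adjusted p = 0.00048) in Spns1 KO and 1.32 ± 0.23 (SE; adjusted p = 0.000669) in FeO. The mitochondrial thioredoxin Txn2 rose by 0.81 in Spns1 KO and 1.26 in FeO, again with no overlap with WT. Msra, which repairs oxidised methionine, rose by 1.20 and 0.87.

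Of the 3 reductases that recharge thioredoxins, 1 rose in each comparison with WT, where 14.0% (Spns1 KO) and 22.4% (FeO) of all genes rose. Txnrd1 (chr10:82833951-82897712, plus strand), the cytosolic reductase, was called in neither model. Txnrd1 was at 402, 371, 357, 403 and 359.7 CPM in WT 1 to 5, at 483, 529.8, 650.4 and 296 CPM in Spns1 KO 1 to 4 and at 453, 368, 587 and 285 CPM in FeO 1 to 4. Spns1 KO 4 and FeO 4 were the lowest of all 13 libraries, the other Spns1 KO libraries were above WT, and FeO 1 and FeO 3 were too. Its log2 fold changes were 0.37 ± 0.23 (SE; adjusted p = 0.248) in Spns1 KO and 0.16 ± 0.23 (SE; adjusted p = 0.579) in FeO, and a Spns1 KO call was gained without Spns1 KO 4 (log2 fold change 0.55, adjusted p = 0.0492). Txnrd2, the mitochondrial reductase and the lowest of the 44 per transcript length at 1.18 CPM per kb in WT, rose by 0.79 ± 0.20 in Spns1 KO and 0.58 ± 0.20 in FeO, the latter call being lost without WT 3, FeO 1 and FeO 3, each left out in turn (log2 fold change 0.44 to 0.57, adjusted p = 0.0563 to 0.0928). Txnrd3, a thioredoxin-glutathione reductase, had log2 fold changes of -0.14 ± 0.15 and 0.17 ± 0.15 and was not called.

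Srxn1 (chr2:152105516-152111376, plus strand), the sulfiredoxin that restores overoxidised peroxiredoxins, rose in FeO and was not called in Spns1 KO. Srxn1 was at 139, 135, 119, 112 and 199 CPM in WT 1 to 5, at 97.4, 129, 177 and 80.8 CPM in Spns1 KO 1 to 4 and at 479.7, 206, 225 and 143 CPM in FeO 1 to 4. FeO 1 was the highest by far, FeO 2 and FeO 3 were just above the highest WT library, WT 5, and FeO 4 was inside the WT range, as were Spns1 KO 2 and Spns1 KO 3. For Srxn1, log2 fold changes were -0.22 ± 0.31 (SE; adjusted p = 0.631) in Spns1 KO, 0.90 ± 0.31 (SE; adjusted p = 0.0277) in FeO and -1.13 ± 0.33 (SE; adjusted p = 0.0348) between the models. Its FeO call was lost without WT 1, WT 2, WT 3, WT 4 and FeO 1, each left out in turn (log2 fold change 0.46 to 0.90, adjusted p = 0.0505 to 0.169). Its difference between the models was lost without Spns1 KO 1, Spns1 KO 2, Spns1 KO 4 and FeO 1, each left out in turn (log2 fold change -1.16 to -0.66, adjusted p = 0.0684 to 0.139).

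The glutaredoxins are small thiol enzymes that use glutathione. Glrx, Glrx2 and Glrx3 were each called in FeO and not in Spns1 KO. Glrx5, a mitochondrial member outside the 44, was called in both (0.99 ± 0.26 and 1.40 ± 0.26). The direct difference of Glrx5 between the models, -0.41 ± 0.27 (SE, adjusted p = 0.304), did not pass. Glrx3 (chr7:137437614-137468594, plus strand), which takes part in handling iron-sulfur clusters, is shown in full. Glrx3 was at 31.6, 31.5, 27.1, 26.1 and 32.9 CPM in WT 1 to 5, at 35.2, 32.7, 45.1 and 31.2 CPM in Spns1 KO 1 to 4 and at 68.1, 35.7, 73.0 and 62.2 CPM in FeO 1 to 4. FeO 1, FeO 3 and FeO 4 were above all Spns1 KO libraries, and FeO 2 was above WT but inside the Spns1 KO range. Its log2 fold changes were 0.27 ± 0.19 (SE; adjusted p = 0.303) in Spns1 KO, 1.00 ± 0.19 (SE; adjusted p = 0.000986) in FeO and -0.73 ± 0.20 (SE; adjusted p = 0.0253) between the models. The last call was lost without Spns1 KO 1, Spns1 KO 2, Spns1 KO 4, FeO 1 and FeO 3, each left out in turn (log2 fold change -0.72 to -0.62, adjusted p = 0.0592 to 0.0723). Glrx (cytosolic) and Glrx2 (mitochondrial) had log2 fold changes of 0.36 ± 0.26 and 0.19 ± 0.15 in Spns1 KO, not called, and rose by 1.05 ± 0.26 and 0.60 ± 0.15 in FeO. Their direct differences, -0.69 ± 0.27 (SE; adjusted p = 0.0942) and -0.40 ± 0.16 (SE; adjusted p = 0.0941), did not pass. The Spns1 KO comparison of Glrx gained a call without Spns1 KO 4 (log2 fold change 0.60, adjusted p = 0.0227), and the difference for Glrx2 gained one without FeO 2 (log2 fold change -0.53, adjusted p = 0.0225).

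Glutathione is made in 2 steps, the first of which is rate-limiting and is catalysed by glutamate-cysteine ligase, an enzyme with a catalytic subunit (Gclc) and a modifier subunit (Gclm). Gclc (chr9:77754535-77794485, plus strand) was called in neither model. Gclc was at 466, 473, 580.1, 537 and 589 CPM in WT 1 to 5, at 403, 456, 482 and 441 CPM in Spns1 KO 1 to 4 and at 704, 454, 478 and 333 CPM in FeO 1 to 4. FeO 1 was the highest library and FeO 4 the lowest, Spns1 KO 3 overlapped with the lower WT libraries, and the other Spns1 KO libraries were below all WT libraries. Gclc had log2 fold changes of -0.25 ± 0.19 (SE; adjusted p = 0.365) in Spns1 KO and -0.10 ± 0.19 (SE; adjusted p = 0.677) in FeO. Gclm (chr3:122245557-122270732, plus strand) rose in Spns1 KO. Gclm was at 139, 129, 146, 165 and 143 CPM in WT 1 to 5, at 261, 303, 315 and 161 CPM in Spns1 KO 1 to 4 and at 212, 189.5, 313 and 140.5 CPM in FeO 1 to 4. Spns1 KO 1 to 3 and all FeO libraries but FeO 4 were above the highest WT library, and Spns1 KO 4 was just below it. Gclm had log2 fold changes of 0.85 ± 0.23 (SE; adjusted p = 0.015) and 0.56 ± 0.23 (SE; adjusted p = 0.0517). Its Spns1 KO call was lost without Spns1 KO 2 and Spns1 KO 3, each left out in turn (log2 fold change 0.74 to 0.76, adjusted p = 0.0542 to 0.058). Its FeO call was gained without Spns1 KO 4, WT 4, FeO 2 and FeO 4, each left out in turn (log2 fold change 0.56 to 0.74, adjusted p = 0.0146 to 0.0477), by DESeq2, and after correction for length and GC (1.03).

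Of the 6 genes of glutathione synthesis, recycling and breakdown, 2 rose in Spns1 KO and 3 in FeO. Of all genes tested, 14.0% and 22.4% rose. Gss, which carries out the last step of synthesis, rose by 0.71 ± 0.20 in Spns1 KO and 0.77 ± 0.20 in FeO, and the Spns1 KO call was lost without Spns1 KO 1, Spns1 KO 2 and Spns1 KO 3, each left out in turn (log2 fold change 0.64 to 0.68, adjusted p = 0.0566 to 0.0669) and after correction for length and GC (0.51). Gsr (chr8:33652523-33698163, plus strand) encodes the reductase that regenerates glutathione from its oxidised form. Gsr was at 138, 121, 108, 152 and 92.2 CPM in WT 1 to 5, at 197, 281, 226 and 68.6 CPM in Spns1 KO 1 to 4 and at 261, 185, 333 and 153 CPM in FeO 1 to 4. Spns1 KO 4 was the lowest library and Spns1 KO 1 to 3 were above WT, while FeO 4 only just exceeded WT 4. Gsr had log2 fold changes of 0.66 ± 0.32 (SE; adjusted p = 0.143) in Spns1 KO and 0.93 ± 0.32 (SE; adjusted p = 0.027) in FeO. The FeO call was lost without WT 3, WT 5, FeO 1 and FeO 3, each left out in turn (log2 fold change 0.71 to 0.91, adjusted p = 0.0542 to 0.103), and a Spns1 KO call was gained without Spns1 KO 4 (log2 fold change 0.94, adjusted p = 0.00709).

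G6pdx (chrX:74409483-74429194, minus strand), the first enzyme of the pentose phosphate pathway and a main source of NADPH, rose in FeO alone of the comparisons with WT. G6pdx was at 20.5, 20.9, 21.6, 25.2 and 25.6 CPM in WT 1 to 5, at 28.3, 23.4, 29.6 and 14.6 CPM in Spns1 KO 1 to 4 and at 80.9, 33.7, 51.2 and 43.5 CPM in FeO 1 to 4. All FeO libraries were above all the others, FeO 1 the highest, while Spns1 KO 4 was below WT and the other Spns1 KO libraries were inside or just above the WT range. Its log2 fold changes were 0.08 ± 0.24 (SE; adjusted p = 0.839) in Spns1 KO, 1.20 ± 0.24 (SE; adjusted p = 0.00134) in FeO and -1.13 ± 0.25 (SE; adjusted p = 0.0112) between the models, and the last 2 held in each of the 13 fits that left out 1 library. Part of the transcript is shared with G6pd2 (17.7% of 31-base words are found in another gene). Ggt1, the brush-border enzyme that breaks down glutathione outside the cell, had log2 fold changes of 0.42 ± 0.24 in Spns1 KO and -0.12 ± 0.24 in FeO, neither of them called.

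The glutathione transferases, which conjugate glutathione to reactive compounds, held the largest changes of the set. Of the 13, 10 rose in Spns1 KO and 12 in FeO, against 14.0% and 22.4% of all genes tested. The alpha-class genes led in Spns1 KO. Gsta2 was at 152, 134, 73.5, 104 and 144 CPM in WT 1 to 5, at 355, 622, 411 and 317 CPM in Spns1 KO 1 to 4 and at 147, 218, 353 and 226 CPM in FeO 1 to 4. Each Spns1 KO library of Gsta2 (chr9:78331018-78355788, minus strand) was above each WT library, and FeO 1 was inside the WT range. Log2 fold changes of Gsta2 were 1.81 ± 0.27 (SE; adjusted p = 0.000621) in Spns1 KO and 0.96 ± 0.27 (SE; adjusted p = 0.0107) in FeO. The FeO call was lost without FeO 3 (log2 fold change 0.70, adjusted p = 0.0506) and after correction for length and GC (0.52). Reads of Gsta2 could be only partly kept apart from Gsta1, Gm10639 and Gm3776, as 75.6% of its 31-base words are found in another gene. The difference between the models, 0.85 ± 0.29 (SE; adjusted p = 0.0573), did not pass and was called without FeO 3 (log2 fold change 1.11, adjusted p = 0.0265), after that correction (0.90) and by DESeq2.

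Gsta4 (chr9:78182774-78209349, plus strand), which acts on the lipid peroxidation product 4-hydroxynonenal, shared no 31-base word with another gene. Gsta4 was at 29.1, 25.5, 16.4, 21.2 and 29.9 CPM in WT 1 to 5, at 77.1, 110.4, 102 and 43.6 CPM in Spns1 KO 1 to 4 and at 69.3, 51.3, 113 and 57.0 CPM in FeO 1 to 4. All libraries of both models were above WT, with log2 fold changes of 1.77 ± 0.28 (SE; adjusted p = 0.000784) in Spns1 KO and 1.57 ± 0.28 (SE; adjusted p = 0.000767) in FeO. Gstp1 (chr19:4035407-4037985, minus strand), the pi-class enzyme, had the largest FeO change of the 44. Gstp1 was at 8.69, 7.76, 6.05, 7.42 and 10.4 CPM in WT 1 to 5, at 24.3, 31.4, 31.7 and 11.5 CPM in Spns1 KO 1 to 4 and at 33.2, 25.1, 41.0 and 22.2 CPM in FeO 1 to 4. Spns1 KO 4 was only just above the highest WT library, and the other model libraries were well above. Gstp1 had log2 fold changes of 1.62 ± 0.27 (SE; adjusted p = 0.00104) and 1.91 ± 0.27 (SE; adjusted p = 0.000393) in Spns1 KO and FeO, with the limit that most of its sequence is shared with Gstp2.

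Among the mu-class genes, Gstm2 (chr3:107981702-107986453, minus strand) had the largest FeO change. Gstm2 was at 11.3, 11.8, 11.6, 11.9 and 20.1 CPM in WT 1 to 5, at 21.7, 30.1, 27.1 and 21.5 CPM in Spns1 KO 1 to 4 and at 50.4, 21.5, 28.9 and 53.5 CPM in FeO 1 to 4. WT 5 stood above the other WT libraries, and all model libraries were above it. Gstm2 had log2 fold changes of 0.91 ± 0.26 (SE; adjusted p = 0.0197) in Spns1 KO and 1.53 ± 0.26 (SE; adjusted p = 0.000644) in FeO. The Spns1 KO call was lost without Spns1 KO 2, Spns1 KO 3 and WT 3, each left out in turn (log2 fold change 0.81 to 0.88, adjusted p = 0.0501 to 0.0674) and after correction for length and GC (0.50), and a difference between the models was called without FeO 2 (log2 fold change -0.81, adjusted p = 0.0368). Gstm1 and Gstm5 rose by 1.45 ± 0.23 and 1.13 ± 0.22 in Spns1 KO and by 1.32 ± 0.23 and 1.19 ± 0.22 in FeO, with no overlap with WT.

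The membrane-bound transferases Mgst1 and Mgst3 were among the 6 largest FeO changes of the 44. Mgst1 was at 34.6, 32.6, 25.1, 29.0 and 32.0 CPM in WT 1 to 5, at 66.5, 83.4, 84.9 and 29.1 CPM in Spns1 KO 1 to 4 and at 116, 53.7, 107 and 70.0 CPM in FeO 1 to 4. Spns1 KO 4 lay inside the WT range of Mgst1 (chr6:138140316-138156755, plus strand), and every other model library was above it. Mgst3 was at 14.8, 14.6, 12.2, 14.2 and 14.4 CPM in WT 1 to 5, at 35.9, 44.8, 43.3 and 20.2 CPM in Spns1 KO 1 to 4 and at 61.6, 39.0, 39.4 and 31.2 CPM in FeO 1 to 4. For Mgst3 (chr1:167371966-167393841, minus strand) every model library was above WT. The log2 fold changes were 1.11 ± 0.28 (SE; adjusted p = 0.0108) and 1.50 ± 0.28 (SE; adjusted p = 0.000924) for Mgst1 and 1.36 ± 0.22 (SE; adjusted p = 0.000956) and 1.61 ± 0.23 (SE; adjusted p = 0.000393) for Mgst3, in Spns1 KO and FeO.

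Gstk1 (chr6:42245935-42250447, plus strand), the kappa-class enzyme of mitochondria and peroxisomes, had a tight rise in Spns1 KO. Gstk1 was at 11.8, 11.8, 8.13, 8.34 and 12.7 CPM in WT 1 to 5, at 28.8, 33.0, 31.1 and 26.5 CPM in Spns1 KO 1 to 4 and at 15.7, 16.0, 24.1 and 24.2 CPM in FeO 1 to 4. The Spns1 KO libraries were all above FeO, and the FeO libraries all above WT. Its log2 fold changes were 1.50 ± 0.19 (SE; adjusted p = 0.000387) in Spns1 KO, 0.92 ± 0.19 (SE; adjusted p = 0.00162) in FeO and 0.58 ± 0.20 (SE; adjusted p = 0.0588) between the models. The last was called without FeO 4 (log2 fold change 0.68, adjusted p = 0.0395), by DESeq2 and after correction for length and GC (0.63), a setting in which the FeO change of Gstk1 fell short (0.45). Gstt1 rose by 1.35 ± 0.19 and 0.89 ± 0.19, the latter not called after that correction (0.41). Gstt2 was called in neither model (0.43 ± 0.33 and 0.31 ± 0.33).

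Gsto1 (chr19:47854970-47864790, plus strand), the omega-class enzyme, differed between the models. Gsto1 was at 28.8, 26.9, 26.6, 23.5 and 33.8 CPM in WT 1 to 5, at 27.1, 33.7, 34.4 and 25.7 CPM in Spns1 KO 1 to 4 and at 56.6, 34.7, 47.6 and 52.1 CPM in FeO 1 to 4. All FeO libraries were above WT and Spns1 KO, FeO 2 by a narrow margin, while Spns1 KO 3 was just above the WT range and the other Spns1 KO libraries inside it. Log2 fold changes of Gsto1 were 0.11 ± 0.16 (SE; adjusted p = 0.639) in Spns1 KO, 0.77 ± 0.16 (SE; adjusted p = 0.00194) in FeO and -0.66 ± 0.17 (SE; adjusted p = 0.0212) between the models. The FeO call ended after correction for length and GC (0.33), and the difference was lost without Spns1 KO 1 and FeO 1, each left out in turn (log2 fold change -0.61 to -0.56, adjusted p = 0.0633 to 0.0703). Gstz1, which also degrades tyrosine metabolites, sat at the threshold: 0.60 ± 0.21 (SE; adjusted p = 0.0507) in Spns1 KO and 0.60 ± 0.21 (SE; adjusted p = 0.0315) in FeO. Its FeO call was lost without WT 3, FeO 2 and FeO 3, each left out in turn (log2 fold change 0.35 to 0.57, adjusted p = 0.053 to 0.154) and after that correction (0.28), and a Spns1 KO call was gained without Spns1 KO 4, FeO 1, FeO 2, FeO 3 and FeO 4, each left out in turn (log2 fold change 0.60 to 0.73, adjusted p = 0.0158 to 0.0478) and by DESeq2.

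The 3 genes of the Nfe2l2-Keap1 axis did not move together. Nfe2l2 (chr2:75675513-75704641, minus strand) encodes the transcription factor itself, which is regulated mainly at the protein level. Nfe2l2 was at 165, 151, 131, 125 and 178 CPM in WT 1 to 5, at 95.4, 128, 119.7 and 109 CPM in Spns1 KO 1 to 4 and at 139, 163, 136 and 141 CPM in FeO 1 to 4. The Spns1 KO libraries lay at or below the lower end of WT, with Spns1 KO 2 inside the WT range and every Spns1 KO library below every FeO library. For Nfe2l2, log2 fold changes were -0.40 ± 0.15 (SE; adjusted p = 0.0605) in Spns1 KO and -0.05 ± 0.15 (SE; adjusted p = 0.793) in FeO, and the difference between the models, -0.35 ± 0.16 (SE; adjusted p = 0.128), did not pass either. Keap1 (chr9:21229730-21239361, minus strand), the adaptor that marks the factor for degradation, rose in FeO. Keap1 was at 36.1, 32.5, 33.2, 31.4 and 35.0 CPM in WT 1 to 5, at 41.7, 37.5, 38.2 and 25.6 CPM in Spns1 KO 1 to 4 and at 52.0, 56.6, 48.7 and 41.5 CPM in FeO 1 to 4. Every FeO library was above every WT library, and Spns1 KO 4 was the lowest of all. Keap1 had log2 fold changes of 0.09 ± 0.15 (SE; adjusted p = 0.692) in Spns1 KO and 0.56 ± 0.15 (SE; adjusted p = 0.00719) in FeO, with a difference between the models of -0.48 ± 0.16 (SE; adjusted p = 0.0525) that was called without FeO 4 (log2 fold change -0.56, adjusted p = 0.0273) and after correction for length and GC (-0.58).

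Nqo1 (chr8:107388225-107403206, minus strand), a quinone reductase and textbook target of the factor, rose in both models. Nqo1 was at 56.6, 51.1, 46.5, 57.4 and 54.6 CPM in WT 1 to 5, at 108, 134, 154 and 43.3 CPM in Spns1 KO 1 to 4 and at 242, 172, 270.3 and 98.1 CPM in FeO 1 to 4. Spns1 KO 4 was the lowest of all libraries and the other Spns1 KO libraries were all above WT, as was every FeO library. For Nqo1, log2 fold changes were 1.05 ± 0.31 (SE; adjusted p = 0.0254) in Spns1 KO and 1.88 ± 0.32 (SE; adjusted p = 0.00063) in FeO. The Spns1 KO call rested on few libraries: it was lost without Spns1 KO 1, Spns1 KO 2, Spns1 KO 3, WT 2 and WT 3, each left out in turn (log2 fold change 0.84 to 1.05, adjusted p = 0.0511 to 0.1) and after correction for length and GC (0.85). The difference between the models was -0.83 ± 0.33 (SE; adjusted p = 0.0964) and was called without FeO 4 (log2 fold change -1.06, adjusted p = 0.0288). Of the other well known targets of the factor among the 44, Gclc and Txnrd1 were called in neither comparison, Gclm in Spns1 KO, and Srxn1 and G6pdx in FeO, with the values given above.

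**Figure D4:**
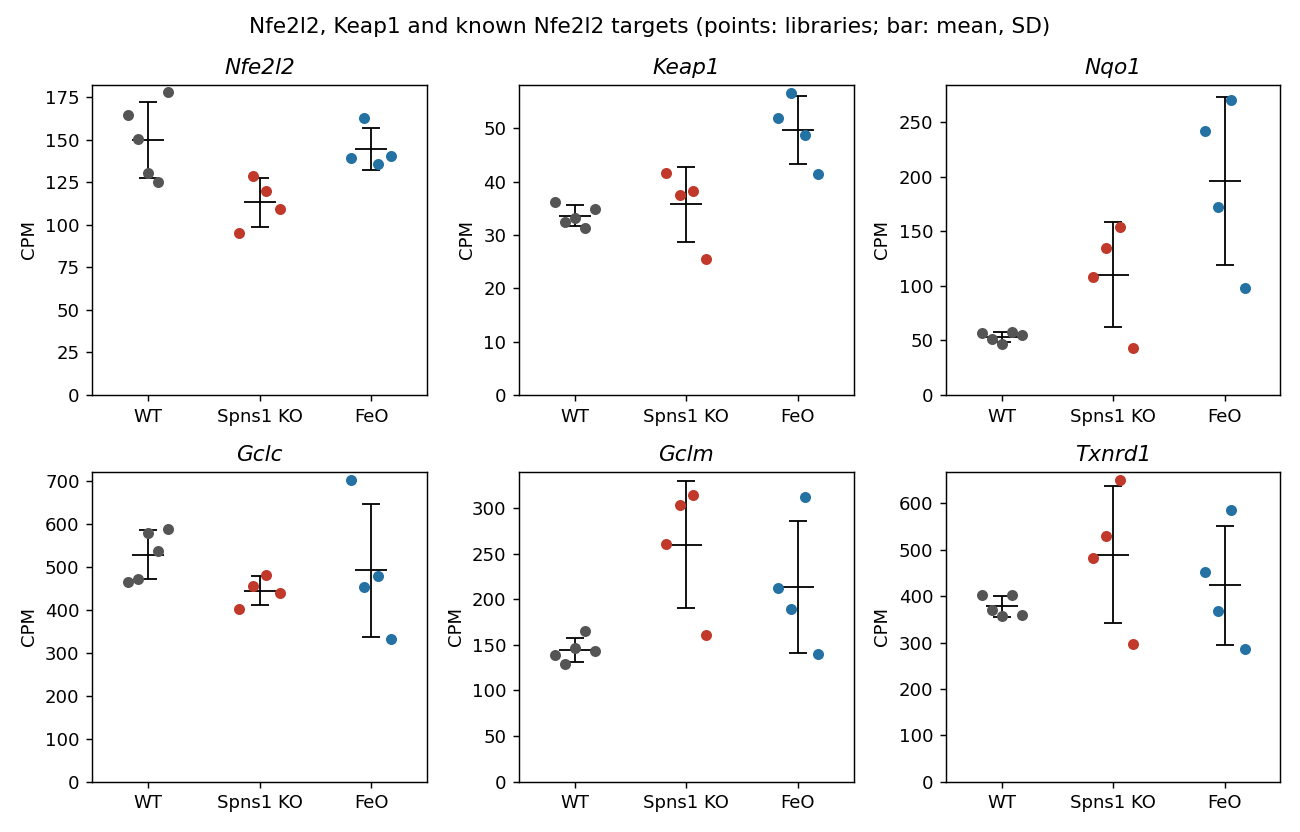
Points are CPM in each library for Nfe2l2, Keap1 and 4 known targets of Nfe2l2, with a bar at the group mean and whiskers of 1 SD (WT n = 5, Spns1 KO n = 4, FeO n = 4), each panel on its own linear axis from 0. Nqo1 is at 46.5 to 57.4 CPM in WT and 98.1 to 270.3 CPM in FeO, while Gclc and Txnrd1 overlap between the groups.

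Set directly against each other, the models differed in 6 of the 44 genes, about as often as over all genes tested. In Spns1 KO, 1 gene was higher than in FeO (Cat, 2.27% of the 44). Another 5 were lower (Prdx6, Srxn1, Glrx3, G6pdx and Gsto1, 11.4%). Of all genes tested, 6.76% were called higher and 8.10% lower. The median log2 difference over the 44 was -0.083, in a range of -1.13 to 1.01, and the median over all genes was 0.028. It was above 0 for 19 of the 44 (51.9% of all genes), with every Spns1 KO library above every FeO library for 3 and below for 4 (8.25% and 9.10% of all genes). The mean level of Cat was 1155 ± 164 CPM (SD, n = 4) in Spns1 KO and 572 ± 177 CPM (SD, n = 4) in FeO, beside 434 ± 37.6 CPM (SD, n = 5) in WT. G6pdx was at 24.0 ± 6.78 and 52.3 ± 20.4 CPM (SD, n = 4 each), beside 22.8 ± 2.43 (SD, n = 5) in WT. Of the 6, Cat and G6pdx kept their call in each of the 13 fits that left out 1 library. The count of lower genes fell to 1 without Spns1 KO 1 or FeO 1, to 2 without Spns1 KO 2 or Spns1 KO 4 and to 3 without FeO 3, and rose to 8 without FeO 2. That of higher genes was 2 without FeO 3 or FeO 4. The share of all genes called lower was 4.79% without Spns1 KO 1, 3.95% without FeO 1 and 9.92% without FeO 2. It was 4.72% without Spns1 KO 2, 5.77% without Spns1 KO 4 and 6.16% without FeO 3. The share called higher was 4.49% without FeO 3 and 8.26% without FeO 4.

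**Figure D5:**
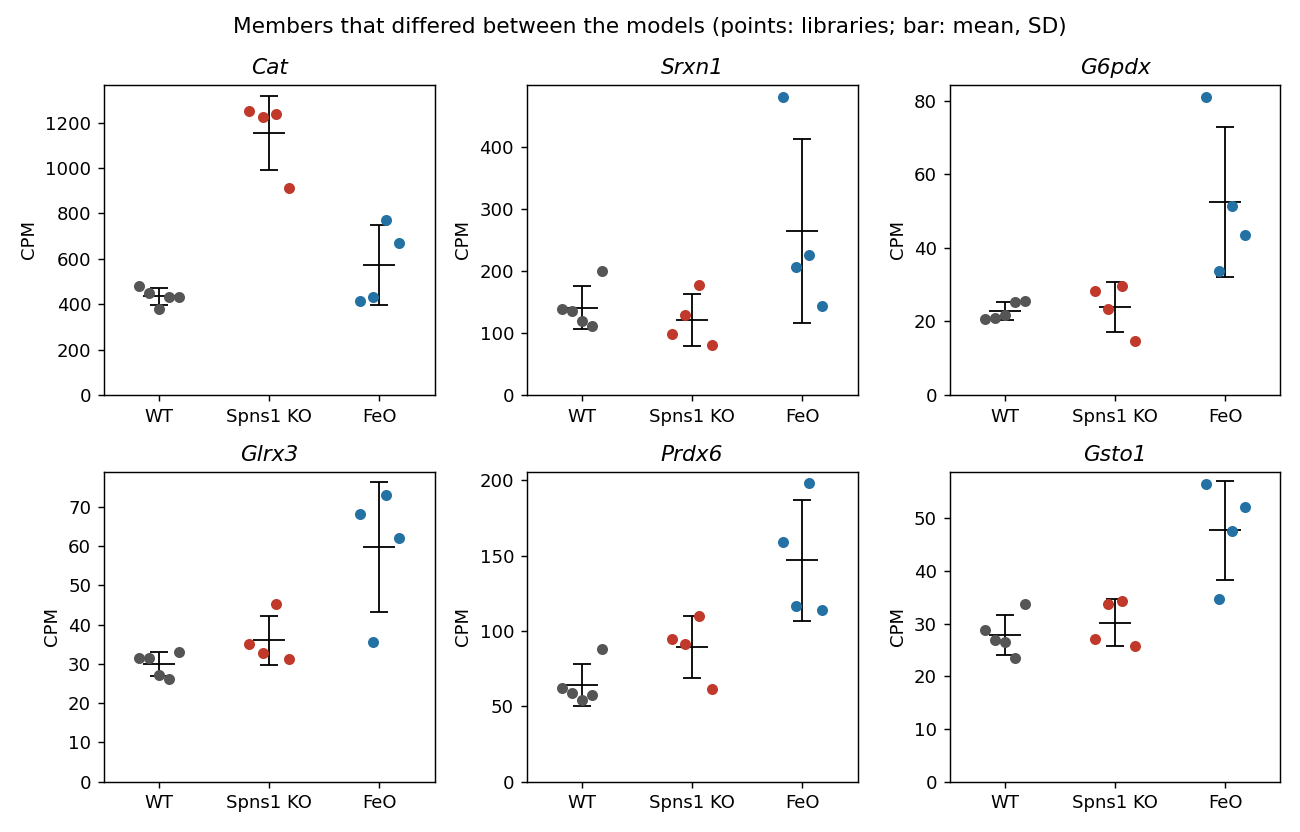
Points are CPM in each library for the 6 genes that differed between Spns1 KO and FeO, with a bar at the group mean and whiskers of 1 SD (WT n = 5, Spns1 KO n = 4, FeO n = 4), each panel on its own linear axis from 0. Cat is at 909.8 to 1250.0 CPM in Spns1 KO and at 416 to 771 CPM in FeO, whereas G6pdx is at 33.7 to 80.9 CPM in FeO and at 14.6 to 29.6 CPM in Spns1 KO.

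A wider list of 62 genes of the same pathways, 60 of which were tested, held genes called in both directions. In Spns1 KO 19 rose (31.7%, against 14.0% of all genes tested) and 5 fell (8.33%, against 7.55%). In FeO 26 rose (43.3%, against 22.4%) and 6 fell (10%, against 19.7%). Between the models, 3 were higher in Spns1 KO (5.00%, against 6.76%) and 9 lower (15%, against 8.10%). Gpx4, the peroxidase that reduces lipid peroxides and protects from ferroptosis, rose in both. Gpx4 was at 108, 103, 63.7, 63.1 and 87.5 CPM in WT 1 to 5, at 187, 240.0, 229 and 95.2 CPM in Spns1 KO 1 to 4 and at 209, 189, 233 and 148 CPM in FeO 1 to 4. Only Spns1 KO 4 overlapped with WT, and the log2 fold changes were 1.14 ± 0.25 (SE; adjusted p = 0.00554) in Spns1 KO and 1.19 ± 0.25 (SE; adjusted p = 0.00195) in FeO. The Spns1 KO change fell short after correction for length and GC (0.58), and 74.1% of the 31-base words of Gpx4 are found in another gene.

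Slc7a11, the cystine importer that feeds glutathione synthesis, moved against the enzymes in Spns1 KO. Slc7a11 was at 9.26, 8.66, 11.0, 12.7 and 5.64 CPM in WT 1 to 5, at 1.73, 2.03, 2.64 and 4.46 CPM in Spns1 KO 1 to 4 and at 6.23, 4.51, 9.70 and 9.78 CPM in FeO 1 to 4. All Spns1 KO libraries were below all WT and FeO libraries. For Slc7a11, log2 fold changes were -1.80 ± 0.33 (SE; adjusted p = 0.00172) in Spns1 KO, -0.32 ± 0.31 (SE; adjusted p = 0.406) in FeO and -1.48 ± 0.34 (SE; adjusted p = 0.0116) between the models. After correction for length and GC the Spns1 KO value was -1.37, still called, and the FeO value was 0.48, not called. Txnip, which binds and inhibits thioredoxin, had lower mean levels in both models. Txnip was at 1161, 1194, 1124, 784 and 1449 CPM in WT 1 to 5, at 222, 336, 574 and 860.2 CPM in Spns1 KO 1 to 4 and at 206, 636, 124 and 621 CPM in FeO 1 to 4. Each FeO library was below each WT library, and Spns1 KO 4 overlapped with WT. Txnip fell in FeO (-1.53 ± 0.46 (SE; adjusted p = 0.0156)) and was not called in Spns1 KO (-1.20 ± 0.46 (SE; adjusted p = 0.07)). The FeO call was lost without FeO 1 (log2 fold change -1.30, adjusted p = 0.0526), and the Spns1 KO call was gained without Spns1 KO 4 and FeO 3, each left out in turn (log2 fold change -1.60 to -1.20, adjusted p = 0.0194 to 0.0382) and by DESeq2.

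Hmox1, heme oxygenase, was called in neither model and was dominated by 1 library. Hmox1 was at 98.4, 70.4, 30.0, 26.2 and 260.0 CPM in WT 1 to 5, at 46.1, 952, 80.2 and 56.8 CPM in Spns1 KO 1 to 4 and at 84.7, 222, 294 and 61.1 CPM in FeO 1 to 4. Spns1 KO 2 was far above all others and WT 5 was the third highest. The log2 fold change of 1.55 ± 0.87 (SE; adjusted p = 0.206) in Spns1 KO became -0.67 without Spns1 KO 2, and that in FeO was 0.77 ± 0.86 (SE; adjusted p = 0.479). Aldh3a1, an aldehyde dehydrogenase, fell in Spns1 KO and rose in FeO. Aldh3a1 was at 1.88, 2.13, 3.81, 2.08 and 2.35 CPM in WT 1 to 5, at 0.850, 1.41, 1.44 and 0.755 CPM in Spns1 KO 1 to 4 and at 8.39, 3.08, 5.29 and 7.98 CPM in FeO 1 to 4. The Spns1 KO libraries were below all others, and FeO 2 overlapped with WT. Its log2 fold changes were -1.15 ± 0.34 (SE; adjusted p = 0.023), 1.33 ± 0.32 (SE; adjusted p = 0.00393) and, between the models, -2.49 ± 0.36 (SE; adjusted p = 0.00166). The Spns1 KO call was lost without Spns1 KO 1 and WT 3, each left out in turn (log2 fold change -1.04 to -0.92, adjusted p = 0.0762 to 0.0803).

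The other large changes of the wider list were in transferases, protein repair and glutathione breakdown. In Spns1 KO, Gstp2 had a log2 fold change of 1.95 ± 0.57 (SE; adjusted p = 0.0228) at under 2 CPM in every library, with most of its sequence shared with Gstp1, and the call was lost without Spns1 KO 2, Spns1 KO 3 and WT 4, each left out in turn (log2 fold change 1.59 to 1.89, adjusted p = 0.0518 to 0.0875). Txndc17, a thioredoxin-like protein, rose by 1.49 ± 0.23 and the brush-border dipeptidase Dpep1 by 1.42 ± 0.23, and Dpep1 was higher in Spns1 KO than in FeO (1.30 ± 0.25 (SE; adjusted p = 0.00541)). In FeO, Gstm4 rose by 1.68 ± 0.30, Gstm7 by 1.42 ± 0.25 and Msrb1, a selenoprotein that repairs methionine, by 1.54 ± 0.34. Msrb1 was lower in Spns1 KO than in FeO (-1.62 ± 0.37 (SE; adjusted p = 0.0114)), with all 4 Spns1 KO libraries, at 46.9 to 51.7 CPM, below all 4 FeO libraries, at 75.9 to 302 CPM. FeO 3 was the library at 302 CPM, and FeO 4, at 75.9 CPM, lay inside the WT range of 33.3 to 77.3 CPM. Without FeO 3 the log2 fold change of Msrb1 was 0.94 in FeO and the difference between the models was -1.02, both still called.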

How the data were processed

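Nascent, biotinylated and poly-A-enriched RNA of 13 kidney libraries (4 Spns1 KO, 5 WT, 4 FeO) was read as 100-base pairs. The unit of the deposited table is the estimated count per gene, which the authors made before deposit, and all values were whole numbers. The submitters' notes name bcl2fastq 2.19, kallisto 0.44.0, DESeq2 and GRCm38, whereas the methods describe counting reads per gene after alignment, so the counting step is not settled, nor is its use of strand. Estimated counts can divide reads between close copies, and they depend on transcript length.

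Counts were tested with edgeR 4.0.16 in R 4.3.3 (TMM, filterByExpr, quasi-likelihood F test) in 1 fit of all libraries, with Benjamini-Hochberg adjustment over 16468 genes. A call needed an adjusted p under 0.05 and a log2 fold change beyond 0.5. CPM used TMM library sizes, and CPM per kb also the length of 1 transcript per gene from GENCODE M21 on GRCm38, which gave coordinates. The scripts were tested on simulated data. The lowest count of the 44 genes in any library was 81, where counting error weighs most. No 2 libraries of the same group agreed within sampling noise by chi-square. WT 1 and WT 2 were the closest (8.61 per degree of freedom, against 41.2 to 321 for the other pairs within a group). Libraries were grouped by their labels. The 44 genes and all lists were chosen with earlier results of these data known. Values of every library are given for 16 fixed members of the main pathways and for the 6 largest called changes of each comparison, and for Gpx4, Hmox1, Slc7a11 and Txnip. The other genes are given by count or change, among them the 4 largest called changes per comparison of the wider list, and per-library values of Aldh3a1, and of Msrb1 as a range, were added after they were seen. Alternatives were other normalizations, no count filter, DESeq2 1.42.0, only the groups compared, a length and GC trend removed with mgcv 1.9.3, a replicate block, and leaving out each library. Promoter sequences came from RefSeq.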

Additional observations from a re-analysis of the deposited data

Results flagged for a closer look

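Among the libraries of 1 group, 6 of the 114 groups of values examined held 1 library far from the others by Dixon's test, and chance alone flags about 1 in 20 groups. Cat was at 909.8 CPM in Spns1 KO 4, below the other 3 Spns1 KO libraries. Mgst3 was at 12.2 CPM in WT 3, below the other WT libraries. WT 5 was above the other WT libraries for Gstm2 (20.1 CPM) and Prdx6 (88.2 CPM). Hmox1 was at 952 CPM in Spns1 KO 2, and Aldh3a1 was at 3.81 CPM in WT 3, each above the rest of its group.

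A second set of results differed between the models in the edgeR comparison of Spns1 KO with FeO. On the log2 scale, Spns1 KO was higher than FeO by 1.01 for Cat and 1.30 for Dpep1. The log2 difference was -0.72 for Prdx6, -1.13 for Srxn1, -0.73 for Glrx3, -1.13 for G6pdx and -0.66 for Gsto1. In the wider list it was -1.48 for Slc7a11, -1.62 for Msrb1 and -2.49 for Aldh3a1.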

How the results depend on the processing

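The counts of the 44 genes called up against WT stayed within 1.5 times of the main count in every alternative run, and 0 were called down in each: left-out libraries gave 22 to 33 in Spns1 KO and 30 to 36 in FeO, and the other settings 19 to 29 and 24 to 36. Of all genes tested, left-out libraries gave 9.32% to 18.2% up in Spns1 KO and 19.9% to 24.4% in FeO. The other settings gave 6.67% to 16.8% and 16.4% to 23.5%. The median log2 fold change of the 44 was 0.83 to 1.06 in both comparisons without 1 library. With the replicate block and the length and GC trend together it was 0.70 in FeO, the counts of the 44 called up were 19 and 24, and the wider list had 8 up in Spns1 KO and 16 in FeO. In that setting 6.67% and 16.4% of all genes were called up. Under both together Sod1, Gpx1, Gpx3, Txnrd2, Gss, Gstm2, Gstm5, Mgst1 and Nqo1 were not called in Spns1 KO, and Gpx1, Prdx4, Txnrd2, Glrx, Msra, Gss, Gsr, Gsta2, Gstt1, Gstk1, Gstz1 and Gsto1 were not called in FeO, where Sod2 and Gclm were gained. Whether the replicate numbers pair the libraries is not settled. The 12 same-numbered pairs had correlations of -0.296 to 0.256, 4 of them over 0.1, and pairs of different numbers -0.317 to 0.367. The replicate block alone gave 26 of the 44 up in Spns1 KO and 31 in FeO, with 2 genes of the wider list down in Spns1 KO (3 with the trend as well). With the block alone Sod2 and Nqo1 were not called in Spns1 KO, and Txnrd2, Gsr and Gstz1 were not called in FeO. Of all genes, the block alone gave 11.7% and 20.2% up. It gave 6.42% down in Spns1 KO (2.33% with the trend as well).

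For the wider list, left-out libraries gave 13 to 26 up and 1 to 11 down in Spns1 KO, 21 to 33 up and 4 to 7 down in FeO, and 1 to 4 higher and 4 to 11 lower in Spns1 KO than in FeO. Of all genes in these fits, 3.12% to 16.2% were down in Spns1 KO and 14.2% to 21.4% in FeO. Between the models, 1 to 2 of the 44 were higher and 1 to 8 lower, against 3.36% to 8.81% and 3.95% to 9.92% of all genes. The median over the 44 was -0.18 to 0.078, above 0 without Spns1 KO 4 or FeO 3 (0.068). With only the groups compared, 1 of the 44 was lower, and 1 of the wider list was higher and 4 lower. Of all genes, 2.55% were then higher and 3.54% lower. DESeq2, the trend removed, and the trend with the block each gave 3 of the 44 higher, by DESeq2 and with the trend removed Cat, Gsta2 and Gstk1. In these 3 settings 9.05%, 6.24% and 4.57% of all genes were higher.

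Uncalled fold changes of single genes changed sign in 24 cases. In Spns1 KO these were G6pdx (-0.016 without Spns1 KO 1, -0.041 without Spns1 KO 3, in a range to 0.25 over left-out libraries), Gsto1 (-0.26 with the trend removed, -0.23 with the block too), Hmox1 (-0.67 without Spns1 KO 2, range to 2.38) and Msrb1 (0.12 with the block, 0.14 without WT 5, range from -0.18). In FeO they were Txnrd1 (-0.037 without FeO 3, range to 0.33), Gclc (0.029 with the trend removed, 0.046 with the block too, 0.067 without FeO 4, range from -0.31), Ggt1 (0.023 without WT 1, 0.0027 without WT 2, 0.013 without FeO 1, range from -0.24), Gstt2 (-0.028 with trend and block, -0.21 without FeO 2, range to 0.59), Nfe2l2 (0.015 with no count filter, 0.018 with the block, 0.039 without WT 5, range from -0.098), Slc7a11 (0.48 with the trend removed, 0.33 with the block too) and Dpep1 (-0.063 with the trend removed, -0.16 with the block too, -0.22 without FeO 4, range to 0.31). The cause was not tested. Of the other alternatives for single genes, 2333 left the call as it was, 119 ended it and 44 added one.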
